A study of Mus musculus with 32 samples.

Results

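Kidney cortex RNA was examined for 10 genes that are used as markers of fibroblasts and myofibroblasts, taken by symbol from a table of 32544 genes: *Acta2*, *Tagln*, *Vim*, *Pdgfra*, *Pdgfrb*, *Fn1*, *Postn*, *Sparc*, *Dcn* and *Lum*. All 10 were in the table and all 10 passed the filter on low counts in every comparison. The table holds 1 library from each of 32 mice of the strain C57BL/6J-Col4a3tm1Dec at 25 weeks of age, from 8 groups of 4 mice (male or female, control or Alport, vehicle or NR). Alport mice were Col4a3-/-, which lack the α3 chain of type IV collagen in the glomerular basement membrane. The control mice were Col4a3+/- and thus carried 1 mutant allele too. Vehicle-treated mice ate a purified control diet from 10 weeks of age, and treated mice ate that diet with nicotinamide riboside (NR, a precursor of NAD+) at 0.5% w/w. The diet change, the age and at least 1 mutant allele are thus shared by all groups.

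Fibroblasts of the kidney lie between the tubules and carry PDGF receptors, while pericytes and other mural cells wrap the capillaries. In chronic injury these cells can become myofibroblasts, which build actin stress fibers from smooth muscle actin and deposit fibronectin, collagens and proteoglycans. Several of the 10 genes are not restricted to them: smooth muscle of arterioles uses *Acta2* and *Tagln*, endothelial cells and podocytes use *Vim*, mesangial cells use *Pdgfrb*, and endothelial cells use *Sparc*. In bulk RNA, fewer cells of a type and less RNA per cell cannot be told apart.

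Total counts were 16621944 to 27778797 per library. Levels are given as CPM, read counts relative to the library size after scaling by the trimmed mean of M values (TMM). The adjusted p comes from the quasi-likelihood F test of edgeR with the Benjamini-Hochberg method over all genes tested, and genes under 0.05 are called. The targeted gene *Col4a3* still gave 49.0 to 83.7 CPM in Alport mice, against 58.97 to 200.1 CPM in controls. The overlap came from NR-treated male control replicates 1 (58.97 CPM) and 3 (74.9 CPM), which lay in the range of Alport mice. Their sums over the 10 genes were 434.7 and 431.3 CPM, above all other controls (237.9 to 382.3 CPM) and below all Alport mice (576 to 1806 CPM). *Col4a3* was also 93.7 CPM in NR-treated male control replicate 2. In female controls it was 104.8 to 123.4 CPM on NR and 139.7 to 162.8 CPM on vehicle. Whether the labels are right was not tested. For NR in male controls and the genotype difference in males, counts and medians of the 10 genes are given with and without replicates 1 and 3. So are the values of *Pdgfra*, *Dcn* and *Lum* for NR in male controls. List values and correlations keep both mice. Male Alport replicate 1 on NR also stood apart, and values without it are given for each comparison that uses its group. As labelled, the libraries held markers of the cortex: those of the proximal tubule summed to 4235 to 22139 CPM and those of podocytes to 477 to 1207 CPM.

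*Acta2* was the only one of the 5 genes with a promoter in the RefSeq table (250 bases before to 50 after the start site, GRCm38.p6; *Acta2*, *Vim*, *Postn*, *Pdgfra* and *Sparc*) that held CArG-like boxes, the sequence read by serum response factor in contractile genes. Its 250 bases before the start site are shown because *Acta2* rose least of the 10 genes in Alport mice. They lie on the minus strand at chr19:34255374-34255623, and capitals mark GGAATG, the element read by TEAD factors, and both CArG-like boxes:
Acta2: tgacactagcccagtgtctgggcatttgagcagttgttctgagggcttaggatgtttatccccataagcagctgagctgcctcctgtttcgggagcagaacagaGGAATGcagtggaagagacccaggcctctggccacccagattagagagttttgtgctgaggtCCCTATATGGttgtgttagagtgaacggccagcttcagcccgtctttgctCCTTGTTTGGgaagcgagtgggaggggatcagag

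The search was for CC, 6 bases of A or T and GG with up to 1 mismatch, a pattern that reads alike on both strands, and for GGAATG on either strand. Counted from the start site, the boxes began at −84 and −34 and GGAATG began at −146, and none of the 3 overlap. Among 32851 promoters of this length, 21.1% held at least 1 such box, 3.7% held at least 2 and 14.7% held GGAATG. The box without mismatch was found in 1.63% of promoters and in none of the 5 genes. A match describes these letters only.

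The first question was how the genes differ between Alport and control mice without treatment. All 10 were higher in vehicle-treated Alport mice of both sexes, and no Alport mouse overlapped a control mouse for any of them. Fibronectin (*Fn1*) rose 10.1-fold in males and 6.25-fold in females, and smooth muscle actin (*Acta2*) rose 1.89-fold and 1.43-fold. Of all genes tested, 26.8% were called higher in males and 23.9% in females, and 22.3% and 20.7% were higher without overlap. For the 10 genes the log2 fold change (log2FC) had a median of 2.45 (males) and 1.65 (females), beside −0.0013 and −0.00083 over all genes tested. Markers of other cells moved in the same comparison, and their part in these results was not tested. All 10 macrophage markers rose in both sexes, and their summed level was 557 to 745 CPM in male Alport mice and 78.2 to 99.6 CPM in male controls, and 436 to 793 and 95.2 to 169 CPM in females. All 8 markers of injured tubules rose and all 10 markers of the proximal tubule fell in both sexes, endothelial markers rose for 9 of 10 in males and 6 of 10 in females, and podocyte markers for 6 of 8 in each sex. None of these markers was at 0 in a whole group.

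**Figure D1:**
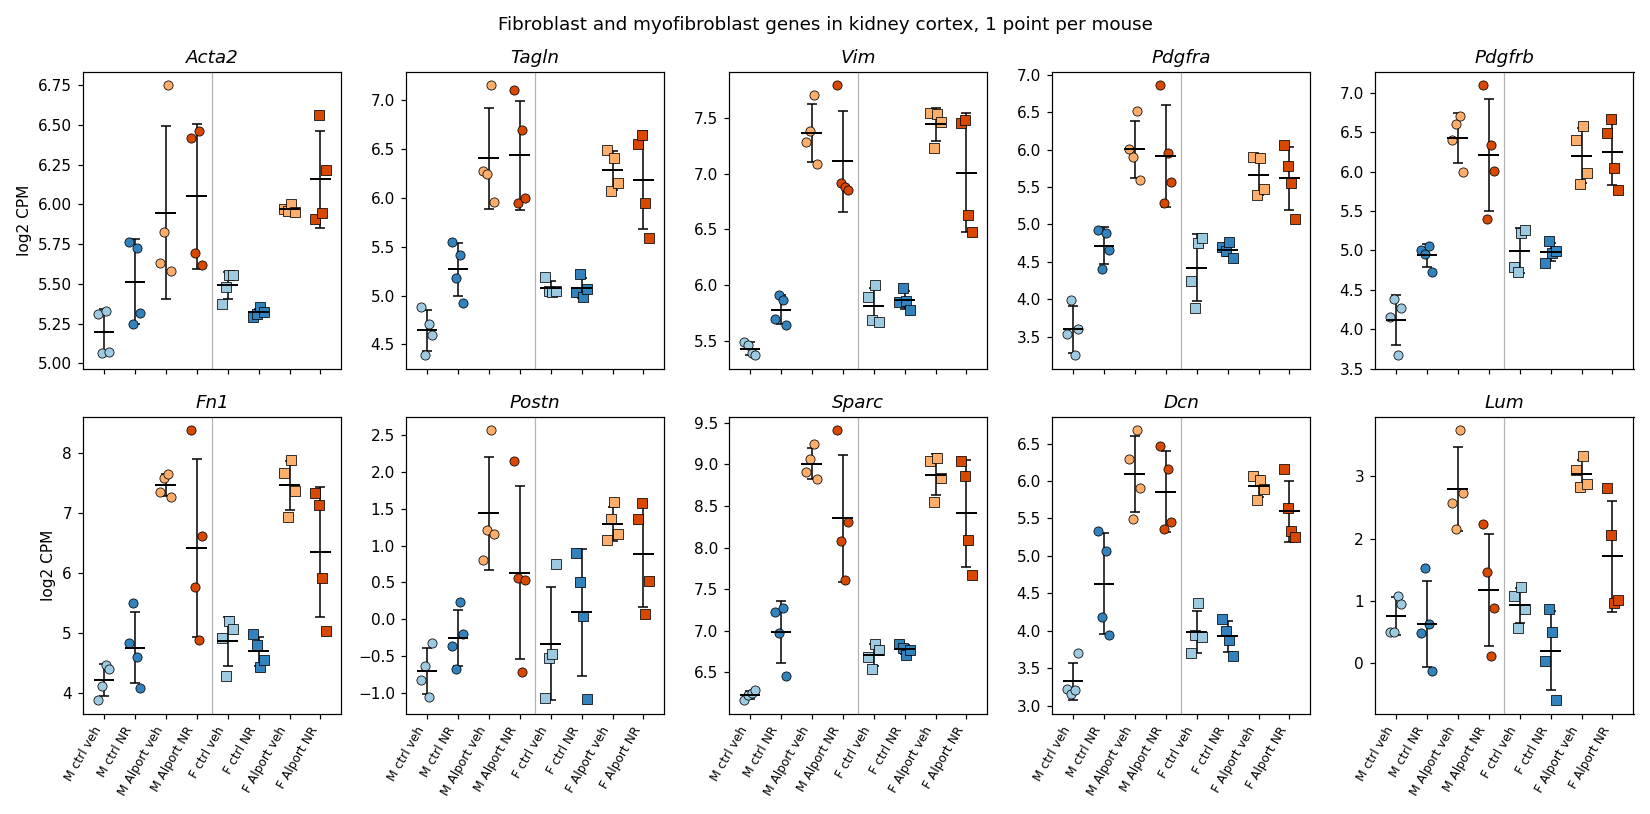
Log2 CPM (y axis, prior count 2) of each of the 10 genes in 8 groups (x axis; M male, F female, ctrl control, veh vehicle), with 1 point per mouse and the mean ± SD of 4 mice. The vehicle-treated Alport mice lie above the vehicle-treated controls of their sex for all 10 genes, and NR-treated male Alport replicate 1 is the highest of its group for 9 of 10.

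*Acta2*, *Tagln* (transgelin, an actin-binding protein of smooth muscle) and *Vim* (vimentin, the intermediate filament of mesenchymal cells) are the cytoskeletal genes. *Acta2* was 39.6, 33.4, 40.1 and 33.5 CPM in vehicle-treated male controls and 49.5, 56.7, 107 and 47.8 CPM in vehicle-treated male Alport mice. In females it was 41.3, 44.6, 46.8 and 46.9 CPM in controls and 62.7, 62.1, 64.0 and 61.9 CPM in Alport mice. The groups did not overlap, and male Alport replicate 3 lay far above the other 3 Alport mice. The log2FC was 0.92 ± 0.27 (SE, n = 4 and 4; adjusted p = 0.0218) in males and 0.52 ± 0.062 (adjusted p = 0.000112) in females. In males the call was lost without control replicate 2 (adjusted p = 0.0585) or 4 (0.0516). Without Alport replicate 3 the male log2FC was 0.57, the lowest of the values with 1 mouse left out. *Tagln* rose by 1.91 ± 0.27 in males and 1.25 ± 0.093 in females on the log2 scale, and *Vim* by 2.04 ± 0.12 and 1.67 ± 0.099.

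*Pdgfra* and *Pdgfrb* encode the receptors of platelet-derived growth factor, PDGFRα of interstitial fibroblasts and PDGFRβ of pericytes and mesangial cells as well. *Pdgfra* was 11.5, 15.9, 9.44 and 12.1 CPM in vehicle-treated male controls and 64.4, 59.6, 91.1 and 48.2 CPM in vehicle-treated male Alport mice. In females it was 18.8, 14.7, 26.9 and 28.2 CPM in controls and 59.8, 41.9, 58.8 and 44.5 CPM in Alport mice. The Alport mice of the sexes overlapped in level, whereas 3 of 4 female controls were above all male controls. The log2FC was 2.51 ± 0.22 in males (adjusted p = 1.34e-05) and 1.25 ± 0.22 in females (0.00169). *Pdgfrb* rose by 2.39 ± 0.18 in males and 1.25 ± 0.19 in females on the log2 scale. Of the 4 PDGF ligand genes, *Pdgfb* and *Pdgfa* rose in both sexes. *Pdgfb* rose by 1.87 in males and 1.52 in females and *Pdgfa* by 1.0 and 0.87 on the log2 scale, while *Pdgfc* fell by 0.35 in males (adjusted p = 0.0304) and *Pdgfd* rose by 0.38 in females (0.00974).

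*Fn1*, *Sparc* and *Postn* encode proteins of the provisional matrix: fibronectin, the collagen-binding protein SPARC and periostin, which is deposited where matrix is remodeled. *Fn1* was 14.6, 17.3, 22.2 and 21.0 CPM in vehicle-treated male controls and 164, 193, 203 and 155 CPM in vehicle-treated male Alport mice. In females it was 30.2, 19.3, 36.6 and 33.4 CPM in controls and 203, 123, 237 and 166 CPM in Alport mice. The lowest Alport mouse of each sex was far above the highest control. The log2FC of *Fn1* was 3.33 ± 0.14 in males (adjusted p = 7.16e-09) and 2.64 ± 0.25 in females (0.000101), and that of *Sparc* was 2.87 ± 0.11 and 2.22 ± 0.13. *Sparc* was at 71.7 to 78.0 CPM in vehicle-treated male controls and 454 to 605 CPM in male Alport mice. *Postn* had the fewest reads, with 8 to 15 reads per library in vehicle-treated male controls and 41 to 153 reads in male Alport mice, so its log2FC was less precise (2.54 ± 0.43 in males and 1.62 ± 0.37 in females).

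*Dcn* and *Lum* encode decorin and lumican, small leucine-rich proteoglycans that bind collagen fibrils. They are neighbours on chromosome 10 of GRCm38 (97479609 to 97518143 and 97565128 to 97572703, both on the plus strand). *Dcn* was 9.27, 8.87, 9.20 and 12.9 CPM in vehicle-treated male controls and 78.6, 45.0, 102 and 59.9 CPM in male Alport mice, a log2FC of 2.91 ± 0.27 (adjusted p = 4.48e-05). In females its log2FC was 1.97 ± 0.13. *Lum* was 1.32, 1.33, 2.02 and 1.85 CPM in vehicle-treated male controls and 5.88, 4.35, 13.3 and 6.57 CPM in male Alport mice. Its log2FC was 2.29 ± 0.34 in males (adjusted p = 0.000187) and 2.19 ± 0.19 in females (2.2e-05), closer between the sexes than that of the other 9 genes. Of 8 other small leucine-rich proteoglycan genes tested, 4 rose in each sex, among them *Bgn* (biglycan; log2FC 2.72 in males and 2.22 in females) and *Ecm2* (1.09 and 0.68), and *Omd* fell in males by 1.93 on the log2 scale.

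**Figure D2:**
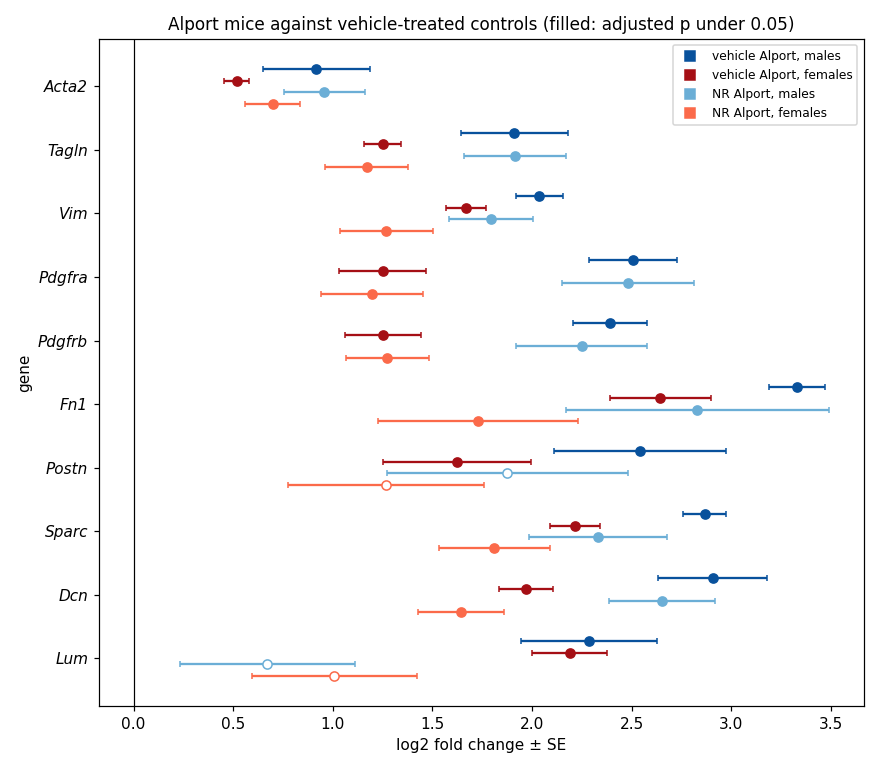
Log2 fold change ± SE (x axis) of the 10 genes (y axis) in vehicle-treated and NR-treated Alport mice against vehicle-treated controls of the same sex, 4 mice in each group; filled points have an adjusted p under 0.05. *Acta2* has the smallest change in vehicle-treated Alport mice (0.92 in males and 0.52 in females) and *Fn1* the largest (3.33 and 2.64); open points for NR-treated Alport mice are *Postn* and *Lum*.

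Divided by the exon length of each gene, *Sparc* had the highest level in vehicle-treated mice of both genotypes, at 19.8 CPM per kilobase in male controls and 137 CPM per kilobase in male Alport mice. *Acta2* was the next of the 10 in male controls (16.7 CPM per kilobase) and the fourth in male Alport mice (29.8), below *Tagln* (44.9) and *Vim* (35.2). The same change of order was seen in females, with *Acta2* at 20.5 and 28.5 and *Tagln* at 17.0 and 39.3 CPM per kilobase. *Fn1* was level with *Dcn* and below *Pdgfrb* in male controls (1.61, 1.72 and 3.21 CPM per kilobase) and near *Pdgfrb* in male Alport mice (15.3 and 15.9). These orders were not tested.

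Genes with related roles were counted from lists. Of 18 genes of contractile and mural cells, 12 rose in males and 9 in females and none fell, with *Cald1* (caldesmon; log2FC 1.75 in males and 1.20 in females) and *Mcam* (1.31 and 0.85) the largest called in both. *Myh11*, the smooth muscle myosin heavy chain, had a log2FC of 0.27 ± 0.20 in males and −0.055 ± 0.11 in females and was not called. Of 18 matricellular and fibronectin-linked matrix genes, 18 rose in males and 17 in females, led by *Smoc2* (5.37 and 3.77) and *Mfap4* (3.99 and 4.26). Of the other fibroblast genes, 16 of 19 tested rose in males and 12 of 20 in females, led by *Col1a1* (5.05 and 3.97) and *Col3a1* (4.11 and 3.50). Of transcription factors linked to myofibroblasts, 12 of 16 rose in males and 10 of 17 in females, with *Runx1* (3.53 and 3.16) and *Sox9* (3.70 and 2.71) ahead. *Srf*, the factor that reads CArG boxes, was not called (0.031 ± 0.076 in males and 0.039 ± 0.095 in females). The median log2FC over these 4 lists was 0.66, 2.64, 1.77 and 1.43 in males and 0.42, 1.81, 1.07 and 0.47 in females.

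The sexes were compared without disease or NR. In vehicle-treated controls, 8 of 10 genes were called higher in females than in males, where 15.7% of all genes tested were called higher, and *Postn* and *Lum* were not called. The log2FC was 0.90 ± 0.17 for *Pdgfrb* (adjusted p = 0.00338), 0.88 ± 0.24 for *Pdgfra* (0.0212), 0.50 ± 0.073 for *Sparc* (0.000196) and 0.32 ± 0.084 for *Acta2* (0.0106). *Sparc* was 92.8 to 114 CPM in female and 71.7 to 78.0 CPM in male controls, without overlap, while *Pdgfra*, *Fn1* and *Dcn* overlapped between the sexes although they were called. In the fit of all 32 mice only *Pdgfra* and *Pdgfrb*, 2 of the 10 genes, were called, and fewer of all genes were called too (counts below). Macrophage and endothelial markers were called higher in females for 4 and 5 of 10, podocyte markers for 6 of 8 and markers of injured tubules for 4 of 8, and their part in the result was not tested.

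The sex difference of the Alport effect was then tested as an interaction in the 16 vehicle-treated mice. The log2FC of Alport against control was smaller in females for 10 of 10 genes, by 0.13 (*Lum*) to 1.29 (*Pdgfra*), with a median difference of −0.71 beside −0.054 over all genes, of which 39.1% were above 0. No gene of the 10 passed the threshold with edgeR, where 0.495% of all genes were called. Of the 10, 7 had an unadjusted p under 0.05 (11.8% of all genes). DESeq2 called *Pdgfra*, *Pdgfrb* and *Sparc* but also called more of all genes than edgeR did. With limma-voom none of the 10 was called, and fewer of all genes were called than with edgeR. The interaction was −1.29 ± 0.33 (adjusted p = 0.115) for *Pdgfra*, −1.17 ± 0.28 (0.0922) for *Pdgfrb* and −0.68 ± 0.16 (0.0641) for *Sparc*. The difference for *Lum* turned to 0.30 without male Alport replicate 3.

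The next question was whether NR changed the genes in Alport mice. No gene of the 10 was called in males or in females, where 0% and 0.458% of all genes tested were called. In each sex 8 of 10 values were below 0, whereas 52.9% of all genes in males and 50.1% in females were above 0. The median was −0.23 in males and −0.30 in females on the log2 scale, beside 0.014 and 0.00049 over all genes. At an unadjusted p under 0.05 there was 1 gene in each sex, *Lum* (5.01% of all genes in males and 16.5% in females), and DESeq2 and limma-voom called none. Which values lie below 0 depends on the scaling: with library totals and no scaling factor, the values of *Acta2* and *Tagln* in males and *Pdgfrb* in females were also below 0, while the median of all genes moved to −0.078 in males and −0.16 in females.

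*Lum* differed most. It was 5.88, 4.35, 13.3 and 6.57 CPM in vehicle-treated and 4.61, 2.66, 1.0 and 1.77 CPM in male Alport mice on NR. In female Alport mice it was 8.52, 7.02, 9.996 and 7.28 CPM on vehicle and 6.97, 4.08, 1.87 and 1.93 CPM on NR. In females each NR-treated mouse was below each vehicle-treated mouse, as for 3.95% of all genes tested, and in males replicate 1 on NR overlapped. The male log2FC was −1.60 ± 0.49 (adjusted p = 0.875) and the female one −1.14 ± 0.38 (adjusted p = 0.203). With both sexes in 1 fit and sex as a covariate it was −1.36 ± 0.33, with an adjusted p of 0.0520 that misses the threshold, which 1.41% of all genes passed. In that fit none of the 10 genes was called with edgeR, 1 had an unadjusted p under 0.05 (19.0% of all genes), and 1, *Lum*, was called with DESeq2 (adjusted p = 0.00218) and with limma-voom (0.0220). Over all alternatives for *Lum* in both sexes, the adjusted p was between 0.00218 and 0.111. *Dcn*, its neighbour on the chromosome, had a log2FC of −0.24 ± 0.31 in males and −0.29 ± 0.18 in females.

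*Fn1* and *Sparc* varied widely among the NR-treated mice. In male Alport mice on NR, *Fn1* was 334, 54.8, 29.6 and 98.5 CPM, so that replicate 1 was above and the other 3 were below all vehicle-treated males (155 to 203 CPM). In females on NR it was 162, 141, 60.2 and 32.6 CPM. *Sparc* was 678, 270, 195 and 318 CPM in NR-treated males and 524, 463, 273 and 203 CPM in NR-treated females, where replicates 3 and 4 lay below the lowest vehicle-treated mouse (373 CPM). The log2FC of *Fn1* was −0.49 ± 0.62 in males and −0.88 ± 0.46 in females, and that of *Sparc* was −0.52 ± 0.35 and −0.37 ± 0.27. *Acta2* (0.057 ± 0.30 and 0.22 ± 0.13), *Tagln* (0.021 ± 0.32 and −0.040 ± 0.21), *Pdgfra* (−0.010 ± 0.33 and −0.013 ± 0.20) and *Pdgfrb* (−0.13 ± 0.32 and 0.063 ± 0.22) were nearer to 0. The 95% interval of *Pdgfra* was −0.66 to 0.64 in males and −0.40 to 0.37 in females. It uses the normal distribution and is narrower than the F test implies with so few mice. Of the related lists and the other marker lists no gene was called in either sex with all mice. In males and females the log2FC was −0.86 and −0.86 for *Col3a1*, −0.68 and −0.88 for *Col1a1*, −1.63 and −1.30 for *Mfap4*, −0.60 and −1.22 for *Smoc2*, and −0.33 and −0.51 for *Bgn*. It was −0.21 and −0.070 for *Cald1*, 0.22 and 0.22 for *Mcam*, −0.53 and −0.53 for *Pdgfb*, −0.18 and −0.10 for *Pdgfa*, −0.45 and −0.35 for *Ecm2*, −0.17 and −0.78 for *Runx1*, and 0.10 and −0.90 for *Sox9*.

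NR-treated male Alport replicate 1 had the highest level of its group for 9 of 10 genes, with a sum over the 10 genes of 1806 CPM against 685 to 804 CPM in the other 3 mice. Its macrophage markers summed to 1086 CPM against 218 to 403 CPM, and its markers of injured tubules to 1807 CPM against 829 to 1326 CPM. Their part in its levels was not tested. This mouse was singled out for its high levels of the 10 genes, so leaving it out lowers the values of NR-treated males. Calls without it are thus no independent support for a fall. Vehicle-treated male Alport replicate 3 was the highest of its own group for 10 of 10 genes (1582 CPM in sum against 1035 to 1235 CPM). Leaving out other single mice brought the male log2FC up to 0.41 for *Acta2* and −0.090 for *Postn*. Without NR-treated replicate 1, 10 of 10 male values were below 0 with a median of −0.50. The log2FC was −1.0 for *Sparc* (adjusted p = 0.0450, the only one of the 10 called, where 1.84% of all genes were called lower), −1.56 for *Fn1* (0.0575) and −2.09 for *Lum* (0.0555). Of the related and marker lists, 12 genes were called lower in males without it: *Bgn* (log2FC −1.01), *Col3a1* (−1.99), *Col1a2*, *Eln*, *Fbn1*, *Mfap2*, *Mfap5*, *Tnc* and the macrophage markers *Cd14*, *Csf1r*, *Itgam* and *Mrc1*. *Col1a1* (−1.88), *Mfap4* (−2.40) and *Smoc2* (−1.53) were not called. With both sexes, *Fn1*, *Sparc* and *Lum* were called lower without it, where 7.46% of all genes were called lower. In females, *Lum* was called without NR-treated replicate 1 (log2FC −1.63, adjusted p = 0.0427; 0.450% of all genes were called lower). The female NR-treated mice were 1251, 1190, 711 and 576 CPM in the sum over the 10 genes, and their macrophage markers 631, 471, 241 and 112 CPM in the same order.

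The difference between the sexes in the response of Alport mice to NR was between −0.41 (*Fn1*) and 0.43 (*Lum*) on the log2 scale, with 5 values on each side of 0 (43.2% of all genes were above 0). None of the 10 was called by edgeR, DESeq2 or limma-voom or had an unadjusted p under 0.05 (2.23% of all genes), and 0% of all genes were called by edgeR. The signs depend on which mice are used: all 10 values were above 0 when replicate 1 of the NR-treated male Alport mice was left out, with a median of 0.45 in place of 0.053, and *Fn1* was 0.65. None of the 10 was called or had an unadjusted p under 0.05 with edgeR in that fit.

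Compared with vehicle-treated controls, NR-treated Alport mice still had higher levels of 8 of 10 genes in each sex, and *Postn* and *Lum* were not called. Of all genes tested, 14.4% were called higher in males and 11.5% in females. The log2FC of *Dcn* was 2.65 ± 0.27 in males (adjusted p = 0.00227) and 1.64 ± 0.22 in females (0.00112). *Lum* was 0.67 ± 0.44 in males (adjusted p = 0.293) and 1.01 ± 0.41 in females (0.107), and *Postn* 1.88 ± 0.60 (0.0533) and 1.27 ± 0.49 (0.0887). *Fn1* was called in both sexes (2.83 ± 0.66, adjusted p = 0.0176, and 1.73 ± 0.50, adjusted p = 0.0425), but in females an NR-treated Alport mouse overlapped the controls and the call held for only 3 of the 8 ways to leave out 1 mouse (5 of 8 in males). Without NR-treated male Alport replicate 1 the same 8 genes were called in males, where 11.2% of all genes were called higher. The log2FC of *Fn1* was then 1.73 (adjusted p = 0.0161), that of *Sparc* 1.83 in place of 2.33 and that of *Lum* 0.17, and the median of the 10 was 1.68 in place of 2.08. Markers of other cells moved in these comparisons, and their part in the results was not tested. Macrophage markers rose for 9 of 10 in males (218 to 1086 against 78.2 to 99.6 CPM in sum) and 7 of 10 in females (112 to 631 against 95.2 to 169 CPM). Markers of injured tubules rose for 7 of 8 in each sex (829 to 1807 against 425 to 447 CPM in males and 1109 to 1662 against 534 to 642 CPM in females). Endothelial markers rose for 9 of 10 and 7 of 10, podocyte markers rose for 6 of 8 and 5 of 8, and markers of the proximal tubule fell for 3 of 10 and 10 of 10. These comparisons share their vehicle-treated controls with those of the vehicle-treated Alport mice. The vehicle-treated male controls also enter the comparison of the sexes and that of NR in male controls. They enter the sex difference of the Alport effect and the genotype difference in males as well. These results are thus not independent. In the sum over the 10 genes those mice were at 237.9 to 244.6 CPM, against 293.3 to 434.7 CPM in the other controls.

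**Figure D3:**
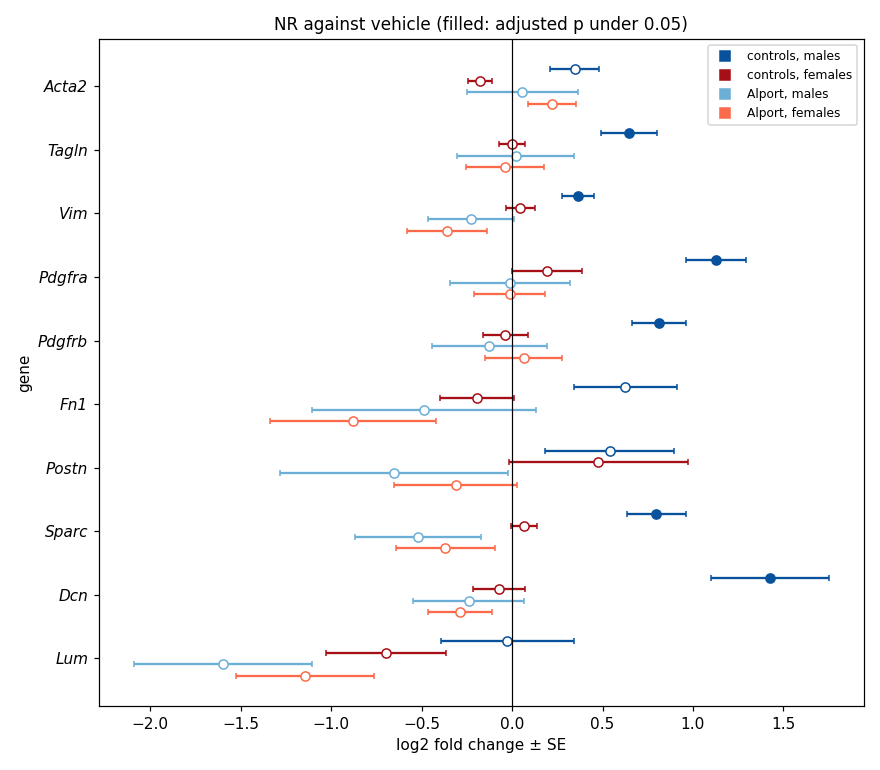
Log2 fold change ± SE (x axis) of NR against vehicle for the 10 genes (y axis) in male and female control and Alport mice, 4 mice in each group; filled points have an adjusted p under 0.05. The 6 filled points, *Dcn*, *Pdgfra*, *Pdgfrb*, *Sparc*, *Tagln* and *Vim*, are all from male controls, and the *Lum* values of Alport mice (−1.60 in males and −1.14 in females) lie farthest below 0.

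In control mice NR was tested against vehicle in the absence of disease. In males, 6 of 10 genes rose (*Dcn*, *Pdgfra*, *Pdgfrb*, *Sparc*, *Tagln* and *Vim*), where 2.97% of all genes tested were called higher, and the same 6 did not overlap between the groups, as for 7.37% of all genes. The median log2FC of the 10 was 0.64 beside −0.00022 over all genes. The calls did not hold without NR-treated replicates 1 and 3, whose *Col4a3* lay in the range of Alport mice. None of the 10 was then called with edgeR (6 had an unadjusted p under 0.05), and the median log2FC was 0.45. DESeq2 and limma-voom were not run without these mice. In that fit 0.566% of all genes were called higher. It kept only NR-treated replicates 2 and 4, and no other pair of mice was left out. The lost calls can thus not be tied to *Col4a3*. Calls were also lost when a single vehicle-treated mouse was left out.

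*Pdgfra* was 30.3, 21.0, 29.5 and 25.3 CPM in NR-treated male controls, all above the vehicle-treated range of 9.44 to 15.9 CPM, a log2FC of 1.13 ± 0.17 (adjusted p = 0.00844). It was called with each single mouse left out (log2FC 1.02 to 1.27), and without replicates 1 and 3 on NR it was 0.91 (adjusted p = 0.0545). *Dcn* was 40.2, 18.2, 33.4 and 15.3 CPM on NR against 8.87 to 12.9 CPM on vehicle, so that replicates 1 and 3 were highest. Its log2FC was 1.42 ± 0.33 (adjusted p = 0.0475) and fell to 0.72 (0.111) without those replicates. *Sparc* was 149, 125, 154 and 88.0 CPM against 71.7 to 78.0 CPM (0.80 ± 0.16, adjusted p = 0.0279), and *Pdgfrb* was 31.9, 31.0, 33.2 and 26.4 CPM against 12.6 to 20.8 CPM (0.81 ± 0.15, adjusted p = 0.0179). Replicate 4 on NR was the lowest of its group for 7 of 10 genes. *Tagln* rose by 0.65 ± 0.15 and *Vim* by 0.37 ± 0.088 on the log2 scale (adjusted p = 0.0424 for both), while *Acta2* (0.35 ± 0.14), *Fn1* (0.63 ± 0.29), *Postn* (0.54 ± 0.36) and *Lum* (−0.026 ± 0.37) were not called.

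**Figure D4:**
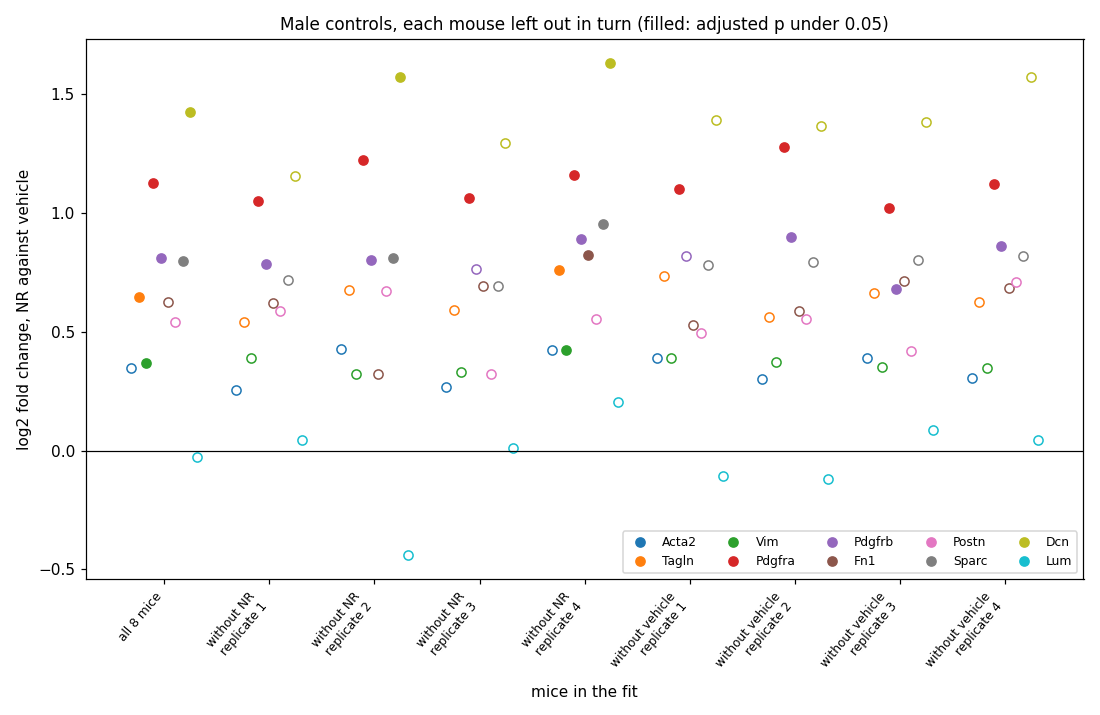
Log2 fold change of NR against vehicle in male controls (y axis) for the 10 genes with all 8 mice and with each mouse left out in turn (x axis); filled points have an adjusted p under 0.05. Between 1 and 7 genes were called, and *Pdgfra* was called in all 9 fits. The share of all genes called in each fit is not shown.

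With 1 mouse left out, 1 to 7 of the 10 genes were called in male controls. There was only 1, *Pdgfra*, without vehicle-treated replicate 1 or NR-treated replicate 3, and 2, *Pdgfra* and *Pdgfrb*, without vehicle-treated replicate 2, 3 or 4 or NR-treated replicate 1. With limma-voom 3 genes were called, with a replicate block 3, and in the fit of all 32 mice 2 (*Pdgfra* and *Dcn*). The share of all genes called is not given here for each of these fits. A change in these counts can thus not be told apart from a change over all genes. Markers of other cells moved with the result, and their part in it was not tested. Endothelial markers rose for 9 of 10, with a summed level of 740 to 1004 CPM on NR and 497 to 552 CPM on vehicle, and macrophage markers for 3 of 10 (89.6 to 189 and 78.2 to 99.6 CPM). *Vcam1* and *Krt20* of the 8 markers of injured tubules rose, and *Slc5a2* of the 10 markers of the proximal tubule fell. *Col4a3* itself was 58.97 to 160.3 CPM on NR and 150.5 to 200.1 CPM on vehicle. Of the related lists, 5 of 18 matricellular and matrix genes rose (*Smoc2*, *Tgfbi*, *Ctgf*, *Spp1* and *Fbln1*; log2FC 1.01 to 2.59), with 4 other fibroblast genes (*Col1a2*, *Cd34*, *Ddr2* and *Cygb*), *Myl9*, *Cald1* and *Bgn*.

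In female controls none of the 10 genes was called by edgeR, DESeq2 or limma-voom, where edgeR called 6.39% of all genes tested, and 1 had an unadjusted p under 0.05 (22.3% of all genes). That gene was *Acta2*, at 39.2, 39.6, 40.7 and 40.0 CPM on NR against 41.3, 44.6, 46.8 and 46.9 CPM on vehicle. Each NR-treated female was below each vehicle-treated one, as for 6.32% of all genes, and the log2FC was −0.18 ± 0.066 (adjusted p = 0.128). The other values were between −0.70 ± 0.33 (*Lum*) and 0.48 ± 0.49 (*Postn*).

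The response to NR was compared between genotypes in the 16 mice of each sex. In males the log2FC of NR was lower in Alport than in control mice for 10 of 10 genes, by 0.31 (*Acta2*) to 1.68 (*Dcn*), with a median difference of −1.14 beside 0.011 over all genes, of which 51.5% were above 0. None was called with edgeR, DESeq2 or limma-voom, where edgeR called 0% of all genes, and 6 of 10 had an unadjusted p under 0.05 (8.83% of all genes). *Dcn* had −1.68 ± 0.47 (adjusted p = 0.413) and *Sparc* −1.34 ± 0.40 (0.434). Without NR-treated male Alport replicate 1, 6 of 10 passed (*Vim*, *Pdgfra*, *Pdgfrb*, *Fn1*, *Sparc* and *Dcn*), for example *Sparc* with −1.81 (adjusted p = 0.00258), where 4.56% of all genes were called lower. That mouse was singled out for its high levels, so leaving it out favors lower values in Alport mice. With that mouse kept and NR-treated male control replicates 1 and 3 left out, none passed with edgeR (3 had an unadjusted p under 0.05) and the median difference was −0.95. In females 8 of 10 differences were below 0 (49.4% of all genes were above 0) and none was called by edgeR, DESeq2 or limma-voom, with 1, *Acta2*, at an unadjusted p under 0.05 (9.24% of all genes) and 0% of all genes called by edgeR.

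Within groups, the 10 genes tended to deviate together from their group means. As a description over the 32 mice, the correlation of these deviations in log2 CPM had a median of 0.60 over 45 pairs of genes, from 0.10 (*Acta2* and *Fn1*) to 0.93 (*Fn1* and *Sparc*). The points share library and scaling. No median for other pairs of genes was computed, so the values are not shown to be particular to the 10 genes. The median was 0.73 in the 16 Alport mice and 0.25 in the 16 controls. Without NR-treated male Alport replicate 1 it was 0.49 over the 31 mice and 0.57 in the 15 Alport mice, and the pairs spanned −0.12 to 0.88. *Acta2* and *Tagln* kept a similar value in both (0.77 and 0.70), whereas *Tagln* and *Pdgfra* had 0.93 in Alport mice and −0.085 in controls. Without that mouse the Alport values were 0.74 and 0.94.

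By the same measure over all 32 mice and among genes with a mean of at least 2 log2 CPM, the most similar genes to *Fn1* were *Col3a1* (r = 0.97) and *Col1a1* (0.95), and to *Sparc*, *Col1a2* (0.95) and *Lhfp* (0.94). *Pdgfra* was most similar to *Axl* (0.92) and *Lrp1* (0.92), *Pdgfrb* to *Nlgn2* (0.92) and *Lix1l* (0.91), and *Vim* to *Fstl1* (0.91) and *Lrrk1* (0.90). For *Acta2* they were *Sparcl1* (0.80) and *Tpm2* (0.78), for *Tagln*, *Kank2* (0.85) and *Lhfpl2* (0.84), for *Dcn*, *Prkcdbp* (0.87) and *Nbl1* (0.84), for *Lum*, *Efemp1* (0.82) and *Ppm1m* (0.80), and for *Postn*, *Ltbp4* (0.78) and *Galnt10* (0.74). Without NR-treated male Alport replicate 1, 18 of the 20 most similar genes were the same, and *Tinagl1* took the place of *Tpm2* for *Acta2* and *Nbl1* that of *Lhfpl2* for *Tagln*.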

How the data were processed

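Poly(A) RNA of kidney cortex was sequenced for 32 mice. The authors deposited raw counts per gene symbol, made with BioJupies, and these were tested. The second table deposited by the authors, log10 of CPM + 1, followed from these counts (largest difference 8.88e-16). The submitters' processing notes name mm10. The aligner and the strand setting are not given in the sources used here, so reads of genes that overlap on opposite strands cannot be told apart. Positions and exon lengths are from GENCODE (GRCm38) and promoters from RefSeq (GRCm38.p6), which held 5 of the 10 genes.

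Each comparison was fitted on its own 8 or 16 mice in R 4.3.3 with edgeR 4.0.16 (filterByExpr with a minimum count of 10, TMM, robust quasi-likelihood F test, Benjamini-Hochberg adjustment, threshold 0.05) after a test on simulated counts. TMM factors were 0.828 to 1.25. The SE is the absolute log2FC divided by the root of F. No batch is labelled, and no mice of a group agreed within sampling noise. Alternatives were DESeq2 1.42.0, limma-voom (limma 3.58.1), RLE factors, library totals, no low-count filter, 1 fit of all 32 mice, a replicate block and each mouse left out. A fit without the robust prior and the exclusion of NR-treated male control replicates 1 and 3 were added after seeing the data, as were the list values and correlations without NR-treated male Alport replicate 1.

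The 10 genes and all lists were chosen with earlier results of these data known. Of 151 list genes 150 were found, 3 by an older symbol. From each related list the 2 largest changes in each direction called alike in both sexes were named, and other list genes were chosen after their values were seen. At most 2 of 6 adipocyte markers passed the filter and none was called (summed level 0.393 to 6.18 CPM).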

Additional observations from a re-analysis of the deposited data

Results flagged for a closer look

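In each of 80 sets of 4 mice (10 genes in 8 groups), the gap between the most extreme mouse and the nearest other mouse was divided by the range of the group in log2 CPM, and 3 sets passed Dixon's 95% critical value for 4 values. By chance about 1 set in 20 passes.

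*Vim* was 222 CPM in NR-treated male Alport replicate 1 and 116 to 121 CPM in the other 3 mice, a gap of 0.936 of the range. This mouse is also highest for 8 of the other 9 genes. *Dcn* was 12.9 CPM in vehicle-treated male control replicate 4 and 8.87 to 9.27 CPM in the other 3 (0.881 of the range). *Tagln* was 36.4 CPM in vehicle-treated female control replicate 1 and 32.8 to 32.9 CPM in the others (0.969 of the range), a small difference in a tight group.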

How the results depend on the processing

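All 10 genes were called in Alport mice in each sex except under alternatives that lost *Acta2*: no low-count filter or the removal of control replicate 2 or 4 in males, and the fit of all 32 mice in females. Library totals without a scaling factor moved the median of all genes by 0.34 in males and 0.26 in females in that comparison.

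The count of called genes for NR in male controls (6 as reported) was 3 with limma-voom, 3 with a replicate block, 2 in the fit of all 32 mice, 0 without NR-treated replicates 1 and 3 (127 of all genes called), and 1 to 7 with 1 mouse left out. For the sexes in vehicle-treated controls it was 2 in the fit of all 32 mice in place of 8. For NR in Alport mice of both sexes it was 1 in place of 0 with DESeq2, limma-voom, the fit of all 32 mice, the replicate block and no robust prior, and 0 to 3 with 1 mouse left out. With 1 mouse left out it was 0 to 1 in male and 0 to 1 in female Alport mice on NR, and 0 to 6 for the genotype difference in males, with 6 without NR-treated Alport replicate 1. For the sex difference of the Alport effect it was 3 with DESeq2. The cause of these changes was not tested. Over all genes, calls for NR were 0 with edgeR, 62 with DESeq2 and 77 in the fit of all 32 mice in male Alport mice, and 72, 728 and 240 in females. They were 229, 902 and 998 in both sexes. In male controls they were 654 with edgeR, 1654 with DESeq2 and 413 with the replicate block, and in female controls 956, 1493 and 406, with 20 in the fit of all 32 mice. That fit gave 6818 in place of 3186 for NR-treated male Alport mice against controls and 2795 in place of 4719 for the sexes. The sex difference of the Alport effect had 80 calls, 260 with DESeq2, 46 with limma-voom, 36 with library totals and 5 in the fit of all 32 mice.

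In 36 pairs of same-numbered mice, deviations correlated between −0.263 and 0.472 and 8 exceeded 0.1. No values for differently numbered mice were computed, so these cannot tell whether replicate numbers pair the mice. The replicate block moved no count of the 10 genes by over 1.5 times other than the pair named above.

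Of 2660 values of a gene under an alternative, 117 changed sign, none of them called in either setting. With library totals, the log2FC of NR in Alport mice turned to −0.012 for *Acta2* and −0.033 for *Tagln* in males and −0.10 for *Pdgfrb* in females, and in female controls to −0.030 for *Vim* and −0.0099 for *Sparc*. In the fit of all 32 mice *Pdgfra* was 0.0084 in male Alport mice and *Tagln* 0.0067 in female controls, and with RLE factors *Pdgfra* was 0.00060 in male Alport mice. *Lum* was 0.13 in male controls without NR-treated replicates 1 and 3. With 1 mouse left out, values of NR against vehicle in male Alport mice spanned −0.090 to 0.41 for *Acta2*, −0.42 to 0.19 for *Pdgfra*, −0.50 to 0.084 for *Pdgfrb* and −0.24 to 0.34 for *Tagln*. In female Alport mice they spanned −0.17 to 0.14 for *Pdgfra*, −0.090 to 0.20 for *Pdgfrb* and −0.20 to 0.12 for *Tagln*. In female controls they spanned −0.16 to 0.076 for *Dcn*, −0.12 to 0.051 for *Pdgfrb* and −0.051 to 0.037 for *Tagln*. *Lum* in male controls spanned −0.44 to 0.20, and the sex difference of the Alport effect for *Lum* −0.32 to 0.30. The genotype difference in males spanned −0.45 to 0.039 for *Acta2*. In Alport mice of both sexes together they were −0.19 to 0.083 for *Pdgfra*, −0.18 to 0.074 for *Pdgfrb* and −0.12 to 0.14 for *Tagln*. The sex difference of the NR effect spanned −0.19 to 0.30 for *Acta2*, −0.29 to 0.14 for *Dcn*, −0.75 to 0.65 for *Fn1*, −0.058 to 0.91 for *Lum*, −0.20 to 0.37 for *Pdgfra*, −0.021 to 0.52 for *Pdgfrb*, −0.22 to 1.13 for *Postn*, −0.089 to 0.59 for *Sparc*, −0.38 to 0.16 for *Tagln* and −0.32 to 0.11 for *Vim*. The genotype difference in females spanned −0.072 to 0.24 for *Pdgfrb* and −0.22 to 0.13 for *Tagln*. In both sexes together, *Pdgfra* was 0.0011 with DESeq2 and 0.0013 with RLE factors, and *Tagln* was −0.025 with limma-voom, −0.11 with library totals, −0.0073 with no low-count filter, −0.0054 in the fit of all 32 mice and −0.011 with the replicate block. The sex difference of the NR effect for *Pdgfra* was 0.040 with limma-voom and 0.030 with the replicate block.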
